A study of Mus musculus with 12 samples.

Results

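The 32 genes described here encode the enzymes of glycolysis and of the pentose phosphate pathway, 22 and 10 genes, in a table of 46078 mouse genes. They were taken by name from a list of these enzymes, and all 32 were present in the table and passed the filter on low counts. The measurements are RNA sequencing counts from mammary tumours grown in BALB/c mice from 4T1, a mouse mammary carcinoma line that models advanced breast cancer and carries firefly luciferase here. Each mouse received 300000 cells in mammary fat pad number 4, treatment began on day 14 and ran for 2 weeks, and the tumours were taken on day 28. The drug groups were MBQ-167 (100 mg/kg, 5 doses a week), paclitaxel (5 mg/kg, 1 dose a week), and both drugs together (the combination), against a vehicle group, with 3 libraries in each of the 4 groups. Rac and Cdc42, small GTPases of the cytoskeleton, are the targets of MBQ-167, whereas paclitaxel binds and stabilises microtubules. All groups carry the same injected line, so every tumour is a mixture of that line and host cells. The titles call the 3 libraries of a group biological replicates, without saying that each is a separate mouse, so each p-value reflects the spread among libraries. The labels do not tie a library to 1 of the 2 occasions of injection, and occasion and treatment cannot be told apart. In bulk tumour RNA, fewer cells of a type and less RNA per cell cannot be told apart either.

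Glycolysis splits glucose into pyruvate in the cytosol, and tumours often run it at a high rate and reduce the pyruvate to lactate even when oxygen is present. The steps of hexokinase and phosphofructokinase consume ATP and are the main points of control, while phosphoglycerate kinase and pyruvate kinase give ATP back. The pentose phosphate pathway branches off after hexokinase: its oxidative arm makes NADPH, and its non-oxidative arm exchanges sugar phosphates with glycolysis and supplies ribose for nucleotides. Many glycolytic genes are known targets of the hypoxia-inducible factor HIF, whose response element has the core ACGTG, and of MYC, which binds the E-box CACGTG.

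Promoter windows of 4 of the members that fell are printed here to show these letters in their context, choosing for each gene a window with the most matches. Each window runs 5′ to 3′ on the gene's own strand over 300 bases around a RefSeq start site on build GRCm38.p6. Capitals mark ACGTG or its reverse complement, on either strand, and a CACGTG therefore counts as 2 overlapping matches.
Pfkl, chr10:78009758-78010057, minus strand, no match: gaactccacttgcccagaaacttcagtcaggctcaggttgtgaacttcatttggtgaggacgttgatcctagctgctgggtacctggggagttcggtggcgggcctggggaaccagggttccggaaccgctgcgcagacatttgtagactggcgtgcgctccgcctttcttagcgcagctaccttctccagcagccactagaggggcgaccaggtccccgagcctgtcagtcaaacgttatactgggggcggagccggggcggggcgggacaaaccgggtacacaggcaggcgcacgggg
Hk1, chr10:62340372-62340671, minus strand, 2 matches: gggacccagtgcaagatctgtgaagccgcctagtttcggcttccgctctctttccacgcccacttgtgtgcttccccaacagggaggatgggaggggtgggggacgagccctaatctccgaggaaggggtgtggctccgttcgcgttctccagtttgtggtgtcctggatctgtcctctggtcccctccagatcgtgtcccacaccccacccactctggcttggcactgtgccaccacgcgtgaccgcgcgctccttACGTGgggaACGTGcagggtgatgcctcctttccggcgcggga
Aldoa, chr7:126799129-126799428, minus strand, 1 match: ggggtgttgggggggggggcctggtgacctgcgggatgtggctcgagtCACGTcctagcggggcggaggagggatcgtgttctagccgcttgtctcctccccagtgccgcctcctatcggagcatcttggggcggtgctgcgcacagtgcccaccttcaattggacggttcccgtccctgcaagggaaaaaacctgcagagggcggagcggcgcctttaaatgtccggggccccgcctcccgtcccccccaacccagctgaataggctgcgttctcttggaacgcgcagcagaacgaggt
Ldha, chr7:46845554-46845853, plus strand, 5 matches that include 2 E-boxes: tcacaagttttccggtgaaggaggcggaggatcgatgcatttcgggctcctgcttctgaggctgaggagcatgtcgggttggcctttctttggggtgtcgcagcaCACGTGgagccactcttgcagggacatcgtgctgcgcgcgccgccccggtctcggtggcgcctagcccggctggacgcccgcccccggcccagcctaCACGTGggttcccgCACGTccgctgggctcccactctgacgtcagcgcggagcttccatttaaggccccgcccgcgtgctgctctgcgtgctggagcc
At least 1 window held ACGTG for 14 of the 32 members, 43.8%, against 21.8% of all 27025 genes with a window. Hk1, Aldoa and Ldha each have 1 further window without a match. The members have more windows per gene, 47 for 32 genes against 32851 for 27025, and by window the shares were 38.3% and 19.6%. The letters were present for 4 of the 8 members that fell with paclitaxel and for 10 of the other 24. The E-box was found for 4 members, 12.5%, against 8.09% of all genes. A match describes these letters only, and binding was not measured.

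The levels of the steps differed widely. Per kb of exon and summed over isozymes, aldolase stood highest, at 218.8 ± 39.7 CPM per kb in MBQ-167, 190 ± 12.03 in paclitaxel, 189.6 ± 3.16 in combination and 304.1 ± 24.4 in vehicle tumours (SD, n = 3 each). CPM is the count of a gene relative to library size, scaled here by the TMM method of edgeR. The length of a gene is that of all its annotated exons merged, and the order of steps and isozymes depends on it. Without that length Pkm stood above Aldoa, at 1286 against 860.6 CPM in vehicle. Pyruvate kinase came next, at 199.8 ± 23.8, 180.3 ± 7.98 and 180.4 ± 16.6 CPM per kb in the MBQ-167, paclitaxel and combination groups and 257.2 ± 21.1 in vehicle, and the ranges of these 2 steps overlapped in the drug groups. Lactate dehydrogenase followed at 166.4 ± 4.58 CPM per kb in vehicle and triosephosphate isomerase at 127.9 ± 12.9. In vehicle, enolase at 68.95 ± 4.97 and phosphofructokinase-1 at 60.54 ± 3.80 CPM per kb came below these. Hexokinase at 51.51 ± 4.26 and glucose phosphate isomerase at 50.39 ± 2.29 did not differ beyond their spread. The pentose phosphate enzymes lay lower, from 26.24 ± 2.16 CPM per kb for Taldo1 to 2.75 ± 0.22 for Rpia in vehicle. Gapdh, usually among the most abundant transcripts, was listed at only 5.69 ± 0.69 CPM per kb in vehicle, a value that is taken up again with its copies.

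Summed over the 32 members, the level was 4153 ± 491 CPM in MBQ-167, 3791 ± 247 in paclitaxel, 3759 ± 229 in combination and 5364 ± 210 in vehicle tumours (SD, n = 3 each). All 9 drug libraries lay below the 3 vehicle libraries, with a highest drug value of 4557 CPM and a lowest vehicle value of 5219 CPM. The members took 0.7003% ± 0.0704 of protein-coding counts in MBQ-167, 0.6513% ± 0.0263 in paclitaxel, 0.6418% ± 0.0302 in combination and 0.8425% ± 0.0377 in vehicle. As a share of all counts the members took 0.4118% ± 0.0406, 0.4151% ± 0.0550 and 0.397% ± 0.0503 in the 3 drug groups and 0.4685% ± 0.0049 in vehicle. On this scale paclitaxel library 1, at 0.4713%, reached the vehicle range, and the MBQ-167 and combination libraries lay below it. 3 features on chromosome 17 took 17.11% to 37.54% of a library's counts, the least in paclitaxel library 1. With total counts in place of TMM, which moved the median log2 fold change of all genes to 0.19 with MBQ-167, 0.32 with paclitaxel and 0.28 with the combination, the members' medians were -0.14, -0.03 and -0.18.

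**Figure D1:**
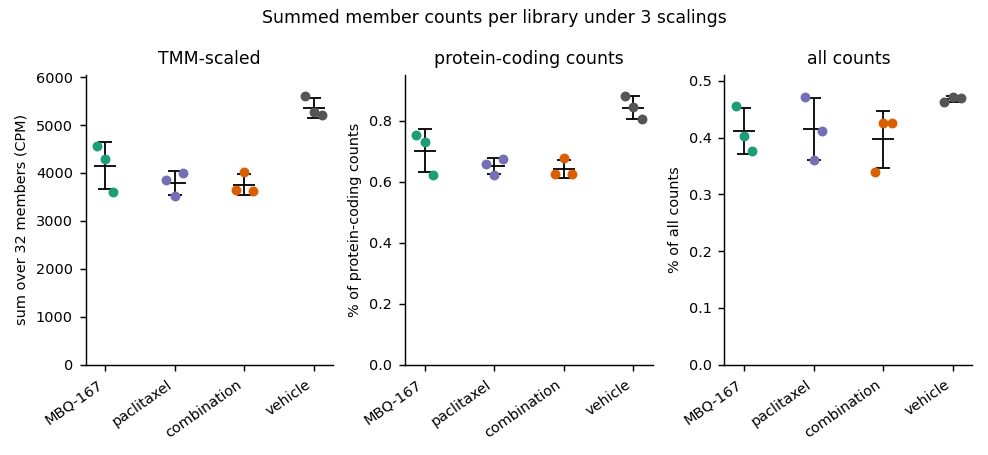
Sum of the 32 members in each library, as TMM-scaled CPM (left), as % of protein-coding counts (middle) and as % of all counts (right), with points for libraries and black bars for mean and SD (n = 3). The 9 drug libraries lie below vehicle in the left and middle panels, while paclitaxel library 1, at 0.4713% of all counts, lies within the vehicle range of 0.4628% to 0.4719% in the right panel.

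Against vehicle, 8 of the 32 members fell with paclitaxel, 5 fell with the combination and none passed with MBQ-167, by edgeR's quasi-likelihood test with Benjamini-Hochberg adjustment over all 18252 genes tested and a threshold of 0.05. The share of all genes that fell was 2.49% with paclitaxel, 0.811% with the combination and 0.0767% with MBQ-167. Among the 9366 genes with at least 10 CPM on average the shares that fell were larger, at 4.4%, 1.41% and 0.139%. No member rose, while 3.17%, 1.03% and 0.0164% of all genes rose in the same 3 comparisons. The 5 members that fell with the combination, Hk1, Pfkl, Aldoa, Tpi1 and Eno1, are among the 8 that fell with paclitaxel, which also hold Pkm, Ldha and Taldo1. These comparisons share the 3 vehicle libraries. With MBQ-167, 12 members had an unadjusted p under 0.05 (12.9% of all genes), and DESeq2 called 3 lower, Hk1, Pfkl and Aldoa. With paclitaxel DESeq2 called 11 lower and 1 higher, Rpe. DESeq2 also called more of all 18252 genes in either direction, 325 with MBQ-167 and 1772 with paclitaxel, where edgeR called 17 and 1033. Leaving out 1 library at a time gave 1 to 8 members lower with paclitaxel and 0 to 6 with the combination, and total counts without TMM gave 1 and 0. Over all genes the leave-one-out fits called 230 to 1139 and 29 to 416 in either direction, and total counts 2392 and 1044. Of the 6 fits that each left out 1 library of the groups compared, the calls with paclitaxel passed in 6 for Pfkl, 5 for Aldoa, 4 for Hk1, 2 for Tpi1, Eno1 and Taldo1, 1 for Pkm and 0 for Ldha. The calls with the combination passed in 2 for Aldoa, 1 for Pfkl, Tpi1 and Eno1, and 0 for Hk1. Of the glycolytic members, 7 of 22 fell with paclitaxel and 5 of 22 with the combination, and of the pentose phosphate members 1 of 10 and 0 of 10.

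The members that did not pass mostly had values on the same side. With MBQ-167 27 members had a negative log2 fold change, with paclitaxel 28 and with the combination 27, set beside 49.92%, 50.24% and 49.87% of all genes. The members' median log2 fold change was -0.33 with MBQ-167, -0.36 with paclitaxel and -0.44 with the combination, where that of all genes was 0.00 in each. Among the 9366 genes with at least 10 CPM on average, the medians were -0.04, -0.07 and -0.06. All 3 drug libraries lay below all 3 vehicle libraries for 13 members with MBQ-167 (8.79% of all genes), 14 with paclitaxel (12.1%) and 18 with the combination (9.86%). They lay above for no member with MBQ-167 (8.54%), for 1 with paclitaxel (13.2%), Rpe, and for 3 with the combination (11%), Rpe, Pfkfb2 and Prps2. In all 3 comparisons the libraries lay below vehicle for 11 members: Hk1, Gpi1, Pfkl, Aldoa, Tpi1, Pgam1, Eno1, Pkm, Ldha, Tkt and Taldo1. The share of all genes that lay below in all 3 was not taken. As the comparisons share the vehicle libraries, the shares of the single comparisons do not give it.

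**Figure D2:**
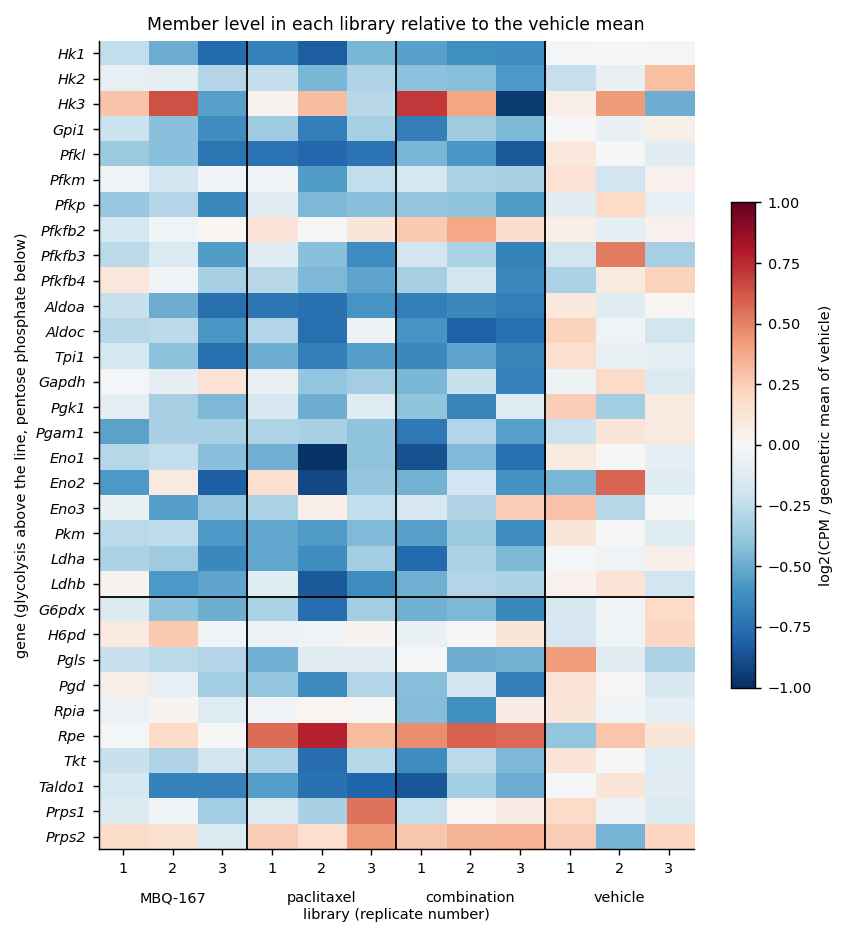
Level of each of the 32 members (rows) in each of the 12 libraries (columns) as log2 of CPM over the geometric mean of the vehicle libraries, blue for lower and red for higher. Rows such as Hk1, Pfkl and Aldoa are blue in all 9 drug libraries, and Rpe is red in the 6 libraries that received paclitaxel.

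**Figure D3:**
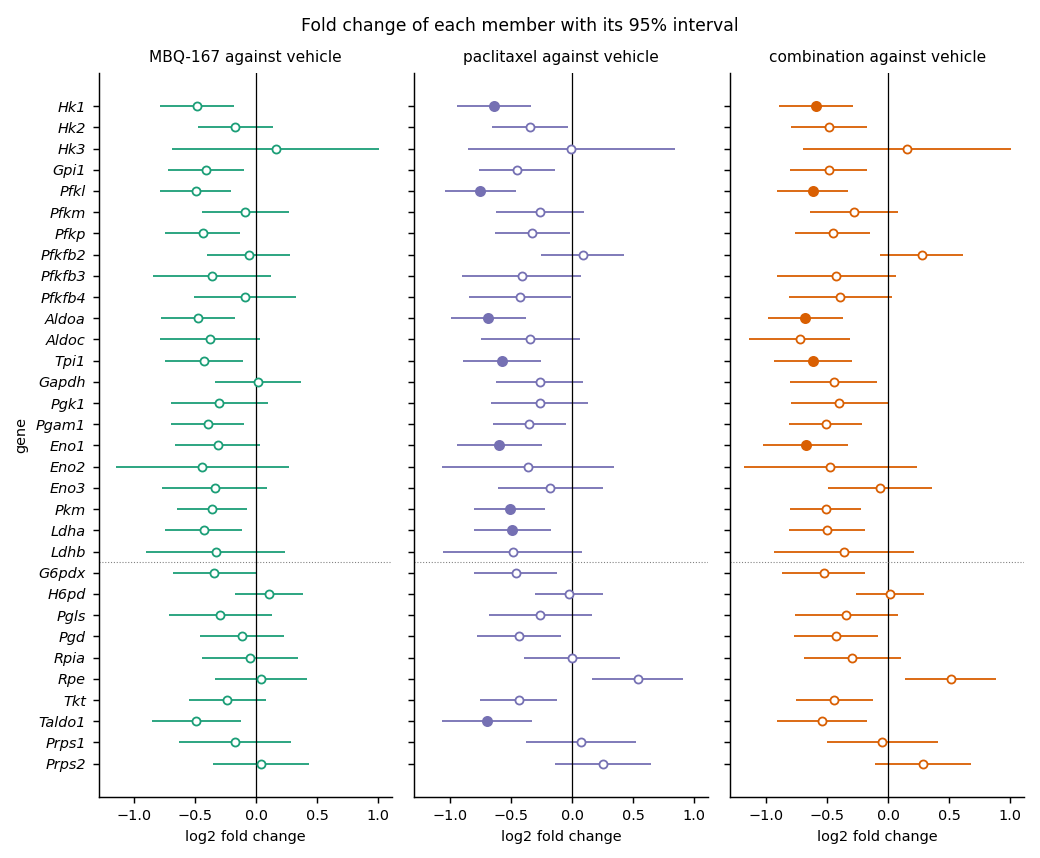
Log2 fold change of each member against vehicle (points) with its 95% interval (lines), for MBQ-167, paclitaxel and the combination. Filled points passed the test: none, 8 and 5 members in the 3 panels, all to the left of 0.

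Neutrophil markers and erythroid genes differed between the same groups, and the trend of counts with base composition differed for paclitaxel and the combination. Carcinoma markers had lower medians with sums that overlapped vehicle. Neutrophil markers summed to 313.7 to 365.3 CPM in MBQ-167, 173.3 to 300 in paclitaxel and 145 to 263.4 in combination libraries, against 445.9, 420.6 and 1647 in vehicle libraries 1, 2 and 3. Of the 15 markers 13 were tested, and 10 fell with paclitaxel and 9 with the combination, where the median log2 fold change was -1.76 for MBQ-167 tumours, -2.80 for paclitaxel tumours and -2.57 for combination tumours. Erythroid genes summed to 14.54 to 107.5 CPM over the drug libraries and 258.2 to 265.4 CPM in vehicle, and 3 of 6 tested fell with paclitaxel and 3 with the combination. Markers of carcinoma epithelium were present in every library, at 925.7 to 1579 CPM in drug libraries and 958.6 to 2822 CPM in vehicle, with Krt5 at 0 to 7.44 CPM, and 1 of 8 fell with paclitaxel. Their median log2 fold changes were -0.88 with MBQ-167, -0.69 with paclitaxel and -0.51 with the combination. Krt8 was named after its values were seen. It lay at 277.3 to 370.1 CPM in the 9 drug libraries and at 371.2 to 694.4 CPM in vehicle. Every other marker on this list had drug values that overlapped the vehicle range. Among these, Epcam, Krt18, Krt7, Krt19 and Cdh1 had lower means in each drug group. Mean Krt5 was higher in each drug group, at 0.77 to 3.02 CPM against 0.56 in vehicle. Mean Krt14 was higher with the combination only, at 39.46 against 33.74 CPM. With the neutrophil level as a covariate, which itself differs between the groups, no member passed. Few of all 18252 genes passed in that fit, 36 with paclitaxel and 3 with the combination, against 1033 and 336 without the covariate. The log2 fold changes with paclitaxel of the 8 members called without it ran from -0.93 ± 0.27 (SE) for Taldo1 to -0.63 ± 0.24 for Ldha. Without vehicle library 3, 7 members fell with paclitaxel and 6 with the combination, with 1139 and 416 of 18698 genes called. Transcript GC was 54.1% in the median member against 50.3% in the median tested gene. The rank correlation of GC with a library's deviation from the gene means was 0.135 to 0.297 in vehicle. It was 0.025 to 0.185 in MBQ-167, -0.332 to -0.153 in paclitaxel and -0.232 to -0.045 in combination libraries. Over the members, GC and log2 fold change had rank correlations of -0.19 with MBQ-167, -0.35 with paclitaxel and -0.30 with the combination. With an offset for GC 2 members, Hk1 and Pfkl, fell with paclitaxel and none with the combination. Of all 18144 genes in that fit 345 and 52 were called. With that offset the members' medians were -0.32 with MBQ-167, -0.33 with paclitaxel and -0.38 with the combination. In the other marker lists no gene passed against vehicle. In the same order of groups, median log2 fold changes were -0.62, -1.55 and -1.18 for skeletal muscle and 0.64, 0.82 and 0.84 for T and NK cells. For adipocytes they were -0.25, 0.96 and 0.71. Medians for macrophages, fibroblasts and endothelium lay between -0.28 and 0.04. The part of cell types or of GC in the members' values was otherwise not tested.

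The entry and control steps are described first. Hexokinase 1, encoded by Hk1 at chr10:62268855-62379908 and bound to mitochondria in most tissues, was at 126, 106.4 and 87.9 CPM in MBQ-167, at 93.94, 84.45 and 109.1 CPM in paclitaxel, at 103, 97.76 and 97.22 CPM in combination and at 148.1, 149.9 and 151.3 CPM in vehicle libraries. The 9 drug libraries were all below the vehicle libraries. Hk1 fell by 0.64 on the log2 scale with paclitaxel (SE 0.13, adjusted p = 0.0148 by edgeR) and by 0.59 with the combination (SE 0.13, adjusted p = 0.0388). With MBQ-167 its log2 fold change was -0.49 ± 0.13 and did not pass (adjusted p = 0.152 by edgeR). Hk2, the inducible hexokinase often raised in tumours, had higher levels than Hk1 per kb of merged exons. In CPM the 2 did not differ beyond their spread in vehicle, at 163 ± 31.8 for Hk2 and 149.8 ± 1.57 for Hk1. The log2 fold changes of Hk2, -0.17 with MBQ-167, -0.35 with paclitaxel and -0.48 with the combination, did not pass. Triplets of fold changes below keep this order of comparisons. Hk3, a hexokinase of myeloid cells, varied from 12.22 to 38.76 CPM over the libraries with no shift between groups beyond that spread. Gpi1, which turns glucose phosphate into fructose phosphate, lay below vehicle in all 9 drug libraries, with log2 fold changes of -0.41, -0.45 and -0.49 and adjusted p = 0.220, 0.0663 and 0.0782 by edgeR. A further transcript, Gm26762, overlaps 11.5% of its exon bases on the other strand.

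Phosphofructokinase-1 commits the sugar to glycolysis. Pfkl, its liver-type subunit at chr10:77986947-78010083, was at 249.4, 241.2 and 194.3 CPM in MBQ-167, at 193.1, 186.9 and 193.4 CPM in paclitaxel, at 234, 215 and 180.2 CPM in combination and at 346.8, 322.4 and 298 CPM in vehicle libraries. All drug libraries lay below all vehicle libraries, and the paclitaxel libraries were close to each other. Pfkl fell by 0.75 on the log2 scale with paclitaxel (SE 0.13, adjusted p = 0.00682 by edgeR) and by 0.62 with the combination (SE 0.13, adjusted p = 0.0302). Its value with MBQ-167 was -0.50 ± 0.13 (adjusted p = 0.142 by edgeR). Pfkp, the platelet-type subunit, had log2 fold changes of -0.44, -0.33 and -0.46, and the muscle-type Pfkm had -0.09, -0.26 and -0.28, none of which passed. Pfkfb2, Pfkfb3 and Pfkfb4 encode the bifunctional enzymes that set the level of the activator of phosphofructokinase-1. Their log2 fold changes ran from -0.43 to 0.28 and none passed, and Pfkfb2 lay above vehicle in all 3 combination libraries (0.28 ± 0.15, adjusted p = 0.344 by edgeR).

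In the middle of the pathway Aldoa and Tpi1 fell with paclitaxel and with the combination. Aldoa, which splits the 6-carbon sugar and lies at chr7:126795234-126800751, was at 736, 609.4 and 508.8 CPM in MBQ-167, at 519.3, 512.7 and 569.4 CPM in paclitaxel, at 532.2, 548.3 and 530.4 CPM in combination and at 924.7, 787.7 and 869.3 CPM in vehicle libraries. The drug and vehicle libraries did not overlap. Aldoa fell by 0.69 on the log2 scale with paclitaxel (SE 0.13, adjusted p = 0.0118 by edgeR) and by 0.68 with the combination (SE 0.13, adjusted p = 0.0278). Aldoc, the brain-type isozyme, had -0.38, -0.34 and -0.73 and did not pass (adjusted p = 0.0549 by edgeR with the combination). Tpi1, which interconverts the 2 triose phosphates, was at 310.8, 264.7 and 208.5 CPM in MBQ-167, at 249.7, 219 and 239.3 CPM in paclitaxel, at 224.9, 243.3 and 221.7 CPM in combination and at 393, 333.3 and 330.1 CPM in vehicle libraries. Every drug library was below every vehicle library. Tpi1, at chr6:124810586-124814296, fell by 0.58 with paclitaxel (SE 0.14, adjusted p = 0.0287 by edgeR) and by 0.61 with the combination (SE 0.14, adjusted p = 0.0407).

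In the lower steps Eno1, Pkm and Ldha fell with paclitaxel, and Eno1 also with the combination. Eno1, the ubiquitous enolase at chr4:150236721-150248879, was at 194.2, 199.8 and 177.1 CPM in MBQ-167, at 170, 120.2 and 178.8 CPM in paclitaxel, at 129.3, 174.4 and 140.7 CPM in combination and at 251.6, 237.4 and 222.4 CPM in vehicle libraries. It fell by 0.60 on the log2 scale with paclitaxel (SE 0.15, adjusted p = 0.0338 by edgeR) and by 0.68 with the combination (SE 0.15, adjusted p = 0.0393), and no drug library reached the vehicle range. Pkm, pyruvate kinase of muscle and tumours at chr9:59656368-59679375, was at 1062, 1074 and 862.1 CPM in MBQ-167, at 894.2, 866.3 and 945 CPM in paclitaxel, at 879.6, 994.5 and 832.8 CPM in combination and at 1393, 1284 and 1182 CPM in vehicle libraries. The drug libraries lay below vehicle throughout. Pkm fell by 0.51 with paclitaxel (SE 0.13, adjusted p = 0.0311 by edgeR), and with the combination the same log2 fold change of -0.51 missed the threshold (adjusted p = 0.0551). Counts per gene do not separate its spliced forms M1 and M2. Ldha, which reduces pyruvate to lactate and lies at chr7:46841475-46855627, was at 431.5, 419.8 and 344.1 CPM in MBQ-167, at 374.3, 350.3 and 421.9 CPM in paclitaxel, at 313.2, 430.7 and 394.7 CPM in combination and at 531.2, 525.2 and 556.6 CPM in vehicle libraries. Here too the groups did not overlap. Ldha fell by 0.49 with paclitaxel (SE 0.14, adjusted p = 0.0492 by edgeR), and its -0.50 with the combination did not pass (adjusted p = 0.0729). Pgam1, phosphoglycerate mutase, had -0.40, -0.35 and -0.51 and Pgk1, phosphoglycerate kinase, -0.30, -0.27 and -0.40, with no call. Eno2 and Eno3, the neuronal and muscle enolases, and Ldhb, the heart-type lactate dehydrogenase, ranged from -0.49 to -0.07 with no call.

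**Figure D4:**
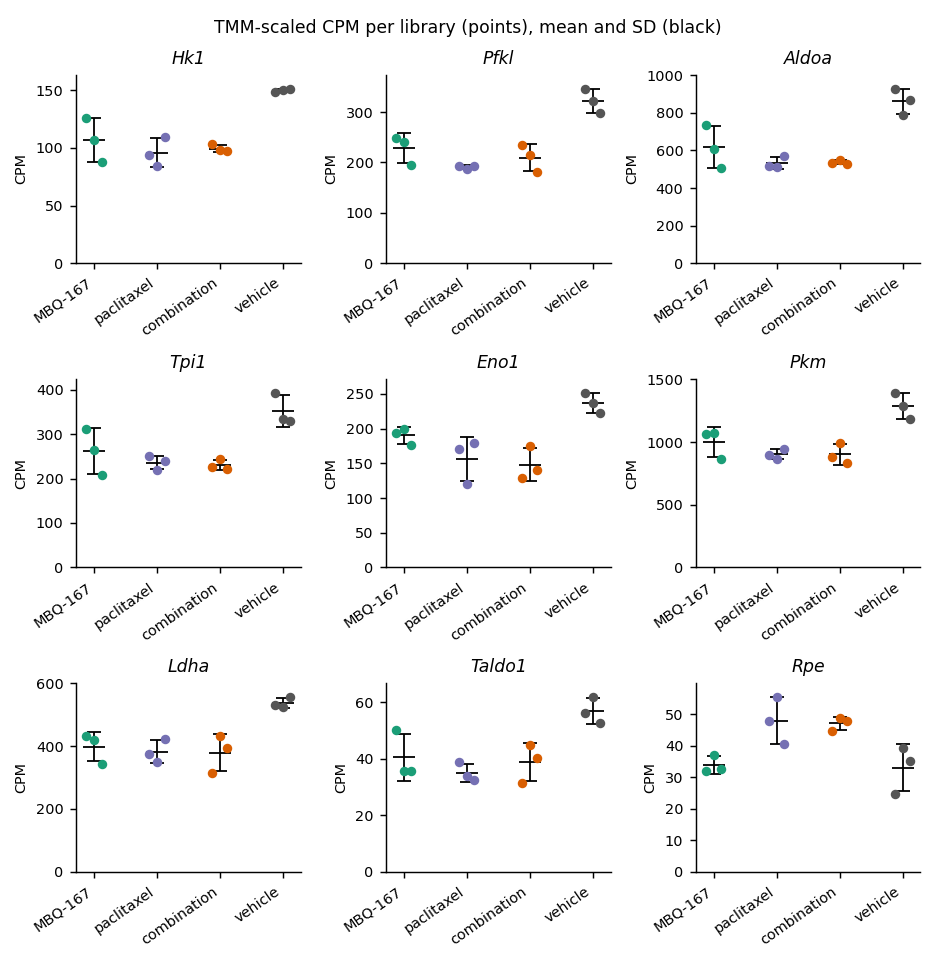
TMM-scaled CPM of the 8 members that fell with paclitaxel and of Rpe in each library (points), with mean and SD (black, n = 3), for MBQ-167, paclitaxel, the combination and vehicle. Every drug library lies below every vehicle library for the 8 members, and for Rpe the paclitaxel and combination libraries lie above vehicle.

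In the pentose phosphate pathway Taldo1, transaldolase of the non-oxidative arm at chr7:141392199-141402968, was at 50.2, 35.67 and 35.67 CPM in MBQ-167, at 38.7, 33.81 and 32.64 CPM in paclitaxel, at 31.51, 44.91 and 40.36 CPM in combination and at 56.38, 61.91 and 52.6 CPM in vehicle libraries. No drug library reached vehicle. It fell by 0.70 on the log2 scale with paclitaxel (SE 0.16, adjusted p = 0.0237 by edgeR), and its -0.49 with MBQ-167 and -0.55 with the combination did not pass. Tkt, transketolase of the same arm, had -0.24, -0.44 and -0.44 with adjusted p = 0.491, 0.0749 and 0.111 by edgeR. Of the oxidative arm, G6pdx, which makes the first NADPH, had -0.34, -0.47 and -0.53, and Pgd, which makes the second, had -0.12, -0.44 and -0.43, with no call. Pgls had -0.29, -0.26 and -0.34. H6pd, the form inside the endoplasmic reticulum, had 0.10, -0.03 and 0.02, with a 95% interval from -0.31 to 0.25 with paclitaxel. Rpia, Prps1 and Prps2, which make ribose phosphate and its activated form, ranged from -0.29 to 0.28 with no call.

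Rpe, the epimerase of the non-oxidative arm, ran the other way. It was at 32.01, 37.04 and 32.51 CPM in MBQ-167, at 47.76, 55.46 and 40.43 CPM in paclitaxel, at 44.62, 48.63 and 47.85 CPM in combination and at 24.64, 39.22 and 35.18 CPM in vehicle libraries. The paclitaxel and combination libraries lay above vehicle and the MBQ-167 libraries within it. Its log2 fold changes of 0.04, 0.54 and 0.51 did not pass (adjusted p = 0.952, 0.0672 and 0.116 by edgeR). Kansl1l lies on the opposite strand and shares 17.9% of the exon bases of Rpe. Kansl1l itself rose by 0.93 with paclitaxel (adjusted p = 0.00369 by edgeR) and by 0.75 with the combination (adjusted p = 0.0200). Whether the libraries keep strand is not stated, so reads of the shared bases cannot be told apart. Rpe also has the lowest transcript GC of the members, at 45.7%. Further members share exon bases with other genes, among them Pgls with Fam129c (20.6%) and Pfkfb2 with Gm29427 (17.4%), both on the same strand. G6pdx shares 13.6% with Ikbkg on the opposite strand, which had 6733 counts against 7274 for G6pdx. Among the members that fell, Hk1 shares 1.84%, Tpi1 1.24% and Aldoa 0.859%.

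Near-identical copies of Gapdh and Eno1 are counted in the table as genes of their own, and how reads shared with them were assigned is not known. Gapdh, the dehydrogenase often used as a reference gene, had 3774 counts over the 12 libraries, while 74 genes with at least 95% identity over at least 100 aligned bases, 73 of them pseudogenes, had 28306. A processed pseudogene, Gm13394, alone had 16614. Gapdh alone was at 23.2, 21.95 and 25.81 CPM in MBQ-167, at 22.17, 17.85 and 18.41 CPM in paclitaxel, at 17.01, 20.07 and 14.65 CPM in combination and at 22.6, 26.72 and 21.2 CPM in vehicle libraries. Together with its copies it was at 199.3, 159.2 and 156.8 CPM in MBQ-167, at 166.6, 144.4 and 172.5 CPM in paclitaxel, at 126.1, 165.6 and 163.9 CPM in combination and at 251.8, 203 and 228.4 CPM in vehicle libraries. With the copies the drug libraries all lay below vehicle, and the log2 fold changes were -0.41, -0.50 and -0.59 (adjusted p = 0.239, 0.0513 and 0.0501 by edgeR), where Gapdh alone gave 0.01, -0.27 and -0.45. Eno1 had 32852 counts against 19537 on 3 copies, of which Eno1b, 99.45% identical, had 16963. Eno1b fell by 0.72 with paclitaxel (adjusted p = 0.0161 by edgeR) and by 0.66 with the combination (adjusted p = 0.0421). Summed with its copies Eno1 gave -0.65 with paclitaxel and -0.67 with the combination. Pkm had a copy with 9.67% of its own counts. For Gpi1 the search returned genes with 17.4% of its counts. Of these the pseudogene Gm1840 aligned over 1046 bases and had 5306 counts. The others, Mrpl27 and 1700034H15Rik, are different genes that matched over only 101 and 104 bases, so the sum for Gpi1 includes counts that are not its own. With all copies added, 8 members fell with paclitaxel and 6 with the combination, the added one being Pgam1 (-0.51, adjusted p = 0.0460 by edgeR). Of all 18197 genes in that fit 1039 and 338 were called in either direction.

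**Figure D5:**
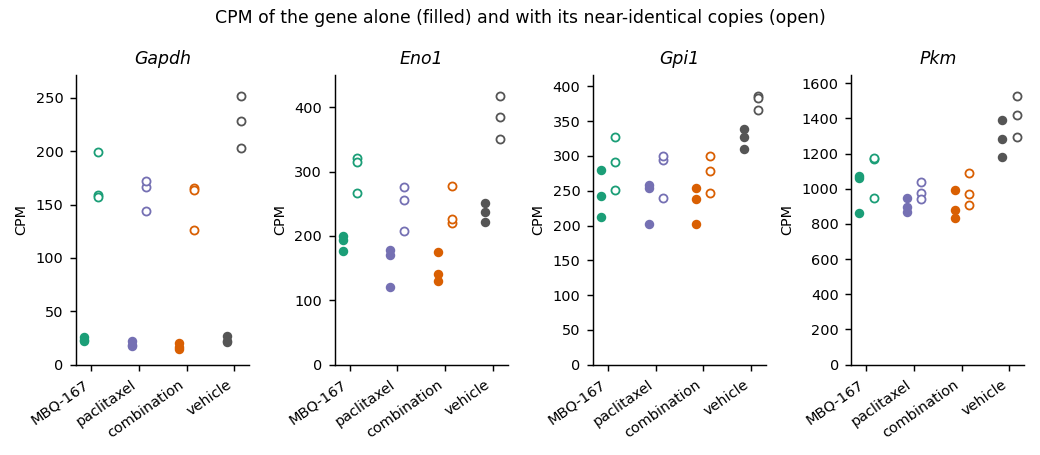
TMM-scaled CPM of Gapdh, Eno1, Gpi1 and Pkm alone (filled) and summed with their near-identical copies (open), 3 libraries per group. For Gapdh the copies hold 83.53% to 91.06% of the summed counts, and the sum separates the drug libraries from vehicle where the gene alone does not. The sum for Gpi1 includes 2 other genes, Mrpl27 and 1700034H15Rik, that match it over a short stretch only.

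The make-up of the steps with several isozymes was compared as shares of counts per kb of exon. The 9 drug libraries were set against the 3 vehicle libraries by an exact two-sided permutation test, whose smallest possible p is 0.00909. None of the 15 shares passed after Benjamini-Hochberg adjustment, and 3 had an unadjusted p under 0.05. Pfkl and Pfkm, parts of the same total, both had the smallest p this test can give, which adjusted to 0.0682. More shares at or near that p would have been needed for any to pass, so the lack of a call says little. Pfkl made up 76.0% ± 2.13 of phosphofructokinase-1 in drug libraries (SD, n = 9) and 79.7% ± 1.06 in vehicle (SD, n = 3; exact p = 0.00909, adjusted p = 0.0682). The Pfkl ranges did not overlap, at 71.46% to 78.05% in drug libraries and 78.84% to 80.91% in vehicle. Pfkm made up 11.7% ± 1.33 in drug libraries (n = 9) and 9.21% ± 1.10 in vehicle (n = 3; exact p = 0.00909, adjusted p = 0.0682). Hk1 made up 29.1% ± 2.83 of hexokinase in drug libraries (n = 9) and 34.2% ± 2.51 in vehicle (n = 3; exact p = 0.0455, adjusted p = 0.227). Aldoa held 97.0% of aldolase in drug libraries and 97.2% in vehicle, and Ldha 97.5% of lactate dehydrogenase in drug libraries and 97.6% in vehicle. Eno1 held 58.8% ± 6.71 of the enolase counts in drug libraries and 64.0% ± 1.80 in vehicle, without the copies of Eno1. By group the Eno1 share was 64.6% with MBQ-167, 57.1% with paclitaxel alone and 54.7% with both drugs.

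Of 32 other genes of the same pathways, 24 passed the filter on low counts, and Eno1b was the only one that edgeR called lower, with paclitaxel and with the combination. None rose, and none passed with MBQ-167. Their medians were 0.00 with MBQ-167, -0.12 with paclitaxel and -0.03 with the combination, beside -0.33, -0.36 and -0.44 for the members. Pgm1, which links glycogen to glycolysis, had -0.26, -0.41 and -0.49 with adjusted p = 0.437, 0.0882 and 0.0782 by edgeR. Hkdc1, Pgk2, Pklr, Ldhc and Tktl2, isozymes of other tissues, and the gluconeogenic Fbp2 were among those with too few counts to test.

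Between the drug groups no member passed the test. In combination against MBQ-167, edgeR called 0 of 18252 genes (0%), with 5 members at an unadjusted p under 0.05 (5.15% of all genes). In combination against paclitaxel it also called 0 genes (0%), with 1 member at an unadjusted p under 0.05 (2.36%). The members' median log2 fold changes were -0.10 and -0.01. The interaction, which is 0 where the effects of the drugs add on the log2 scale, passed for no member and for 0.0603% of all genes, with 5 members at an unadjusted p under 0.05 (9.83%). Those were Pfkl at 0.63 ± 0.18, Taldo1 at 0.65 ± 0.23, Hk1 at 0.54 ± 0.19, Aldoa at 0.49 ± 0.19 and Ldha at 0.42 ± 0.19, with adjusted p from 0.265 to 0.493 by edgeR. DESeq2 called no member in these 3 comparisons. A p that misses the threshold does not show that the drug groups act alike on these genes.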

How the data were processed

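RNA sequencing of 12 tumour libraries was analysed, 3 in each of 4 groups, mapped to groups by their labels. The authors deposited unnormalised counts for each gene and library. Per the submitters' processing notes the authors used HISAT2, HTSeq and DESeq2 on GRCm38; tool versions, strandedness and the rule for multi-mapped reads are not stated. Totals ran from 11540557 to 17001562 counts per library, of which 52.67% to 71.54% were in protein-coding genes, and the table has no column without a sample.

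Genes were kept by filterByExpr of edgeR 4.0.16 (R 4.3.3, minimum count 10), and all 12 libraries entered a TMM-scaled quasi-likelihood model with 8 residual degrees of freedom and a biological coefficient of variation of 0.214. P-values were adjusted by the Benjamini-Hochberg method over 18252 genes in each of 6 comparisons. The method was tested on simulated data. Libraries of 1 group differed by far more than sampling noise, with a chi-square per degree of freedom of at least 18.63. Annotation, exon lengths and GC came from GENCODE vM21 on GRCm38, near-identical copies from a blastn search of transcripts, and promoters from RefSeq.

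Every member is given, with the value in each library where it passed in a comparison. Genes with few counts have wide intervals. Alternatives were DESeq2 1.42.0, other scalings and filters, covariates and leaving out libraries; summing copies, another transcript length and total counts without TMM were added after seeing the data. The members and lists were chosen with earlier results of these data known. Protein sequences are not used here.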

Additional observations from a re-analysis of the deposited data

Results flagged for a closer look

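Counts outside the members' own rows were found on near-identical copies of Gapdh. The 74 copies held 28306 counts over the 12 libraries, while Gapdh itself held 3774. No explanation was tested. The groups have 3 libraries each, too few to look for single outlying values.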

How the results depend on the processing

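No called member changed sign under any alternative run, and the members' median stayed negative in all 3 comparisons with vehicle, from -0.40 to -0.14 with MBQ-167, -0.45 to -0.03 with paclitaxel and -0.52 to -0.18 with the combination. The number of members that passed moved more. Against the 0 with MBQ-167, 8 lower with paclitaxel and 5 lower with the combination, DESeq2 gave 3 lower with MBQ-167, 11 lower and 1 higher (Rpe) with paclitaxel and 15 lower with the combination. Of all 18252 genes DESeq2 called 325, 1772 and 958 in these comparisons, where edgeR called 17, 1033 and 336. No filter on low counts gave 9 lower and 1 higher with paclitaxel and 13 lower with the combination, with 1554 and 849 of 30803 genes called. A fit of only the groups compared gave 4 lower with paclitaxel (251 of 17146 genes called) and 0 with the combination (7 of 16984). An offset for GC gave 2 and 0 (345 and 52 of 18144 genes called), and the neutrophil level as a covariate 0 and 0 (36 and 3 of 18252). Total counts without TMM, added after seeing the data, gave 1 lower and 1 higher with paclitaxel and 0 lower and 1 higher with the combination; that scaling moved the median of all genes to 0.19, 0.32 and 0.28 and the members' to -0.14, -0.03 and -0.18. Leaving out 1 library gave 1 to 8 lower and 0 to 1 higher with paclitaxel, and 0 to 6 lower with the combination. With paclitaxel the count was 3 without vehicle 1, 4 without vehicle 2, 3 without paclitaxel 1, 1 without paclitaxel 2 and 4 without paclitaxel 3. In the same order, these fits called 366, 849, 406, 230 and 707 of all genes in either direction. With the combination it was 0 without vehicle 1 or any 1 combination library, 1 without vehicle 2 and 2 without MBQ-167 2 or paclitaxel 1. Of all genes, 60 were called without vehicle 1, and 29, 38 and 82 without combination 1, 2 and 3. Without vehicle 2, MBQ-167 2 and paclitaxel 1 the calls over all genes were 246, 164 and 183. The cause was not tested. The replicate block gave 7 lower and 1 higher with paclitaxel and 5 lower with the combination, with 1092 and 300 of 18252 genes called. Same-numbered libraries did not pair: 6 of 18 correlations of deviations were over 0.1, from -0.18 to 0.25. Of the members' single values, 221 of 4384 had another sign, none of them called.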
